A study of Homo sapiens with 9 samples.

Results

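The genes described here are cyclin D1 (CCND1) and 9 further regulators of the G1 phase of the cell cycle. They were taken from the deposited count table: the D-type cyclins CCND1, CCND2 and CCND3, their kinases CDK4 and CDK6, the E-type cyclins CCNE1 and CCNE2, the kinase inhibitors CDKN1A (p21) and CDKN1B (p27), and cyclin G2 (CCNG2). These are 10 of the 38021 genes in the table. They were chosen by name and not by a threshold on their values.

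RNA was sequenced from 786-O, an established line of human clear cell renal cell carcinoma (ccRCC) that lacks functional VHL and therefore accumulates HIF2α without hypoxia. Every culture was labelled wild type in genotype and carried a pLKO.1 lentiviral short hairpin RNA under puromycin selection: a control hairpin (shControl), a hairpin against ARNT (shARNT) or a hairpin against BMAL1 (shBMAL1, gene ARNTL in the table). ARNT is the established partner of HIF2α, and the comparison asks how lowering ARNT or the clock factor BMAL1 changes gene expression in these cells. Each group had 1 hairpin label and 3 libraries labelled biological replicates. An effect of a hairpin on other genes and an effect of lowering its target therefore cannot be told apart. The paper's methods list more than 1 hairpin against BMAL1 without saying which was sequenced. The labels do not say that replicates came from separate infections.

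D-type cyclins bind CDK4 or CDK6 and start the phosphorylation of the retinoblastoma protein RB, which releases E2F factors. Cyclin E with CDK2 completes that step and takes the cell into S phase, and p21 and p27 bind the cyclin-kinase complexes and restrain cyclin E with CDK2. In VHL-deficient renal carcinoma cells CCND1 is a known HIF2α target. Levels of RNA are not levels of protein, and p27 and the D-type cyclins are known to be controlled strongly by protein turnover.

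Each library held between 33793067 and 35444757 reads, and mitochondrial genes took 5.46% to 7.14% of reads in shControl, 7.59% to 8.74% under shARNT and 8.71% to 9.66% under shBMAL1. The summed level of 7 markers of renal tubule and renal carcinoma cells, all detected, in CPM (reads scaled to a common library total) was 896 to 941 in shControl, 1327 to 1407 under shARNT and 1917 to 2030 under shBMAL1. CDH6 carried most of that difference (382 to 408, 759 to 838 and 1270 to 1408 CPM), whereas PAX8, the kidney lineage factor, was at 267 to 302, 286 to 298 and 202 to 218 CPM. Summed markers of leukocytes (0.203 to 0.428 CPM) and of endothelium (0.226 to 0.536) were near 0 in every group. Those of fibroblasts summed to 5.90 to 7.75 in shControl, 5.58 to 6.07 under shARNT and 10.4 to 11.2 under shBMAL1, where LUM and PDGFRA were higher while COL1A1 overlapped shControl, COL1A2 was at 0 in all libraries and DCN was near 0. The part of the mitochondrial share and of the marker levels in the results below was not tested. ARNT fell by 47.8% under shARNT and ARNTL fell by 57.2% under shBMAL1 (log2 fold changes -0.94, SE 0.07, and -1.23, SE 0.11, DESeq2 adjusted p 8.62e-35 and 2.50e-25). Each hairpin group also held less RNA of the other partner, with ARNTL at -0.26 under shARNT and ARNT at -0.23 under shBMAL1 (DESeq2 adjusted p 0.0293 and 0.0187). At the protein level the paper reports the other direction, a slight rise of each partner by immunoblot when the other was depleted.

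Expression of 9 of the 10 members could be tested. Here a gene is said to have risen or fallen when its DESeq2 adjusted p, computed over all genes tested, was under 0.1. Against shControl, 4 members passed under shARNT (1 lower, 3 higher) and 6 under shBMAL1 (2 lower, 4 higher). Of all genes tested, 35.4% passed under shARNT (19% lower, 16.5% higher) and 36.8% under shBMAL1 (19.4% lower, 17.4% higher), so changes of this kind were common in these cells. CCND1 fell in both knockdowns and CDK6 and CDKN1A rose in both. The other changes were found against shControl in 1 knockdown only: CCNE2 rose under shARNT, whereas CCND3 fell and CDKN1B and CCNG2 rose under shBMAL1. The direct comparison of the knockdowns, which tests whether they differ, passed for 6 members (3 lower and 3 higher in shBMAL1) against 36.3% of all genes tested (18.6% lower, 17.8% higher). Both knockdowns were compared with the same shControl libraries.

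**Figure D1:**
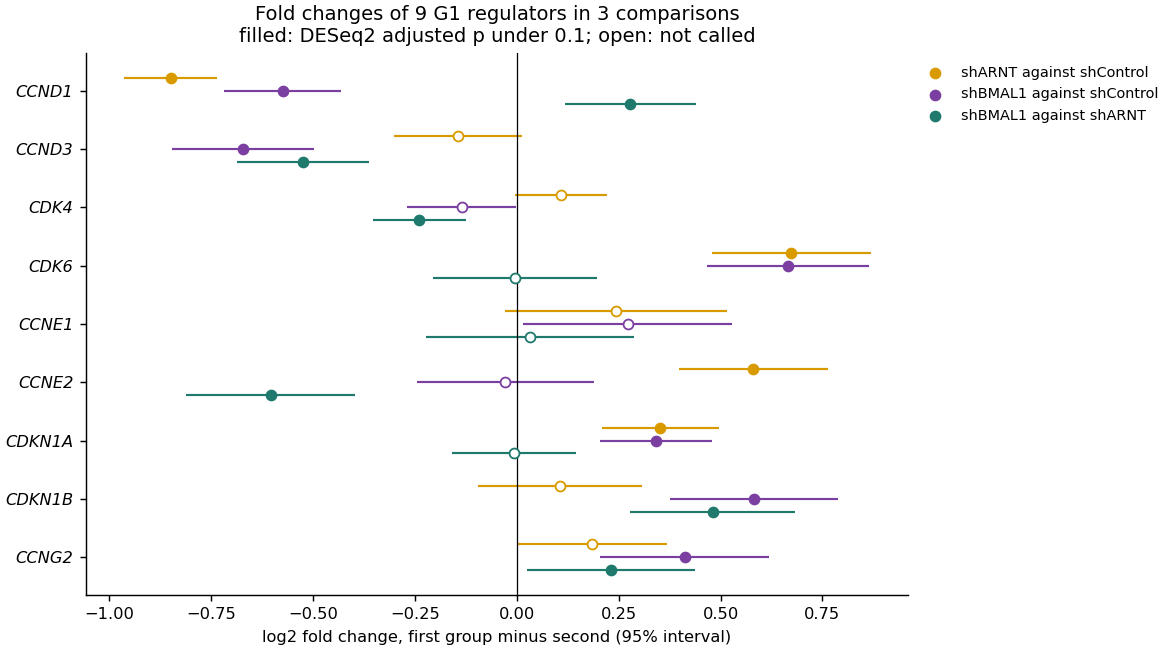
Log2 fold changes (x axis) of the 9 tested members under shARNT and under shBMAL1, each against the same 3 shControl libraries, and of shBMAL1 against shARNT. Points are DESeq2 estimates, bars are 95% intervals, and filled points passed an adjusted p under 0.1; CCND1 lies left of 0 in both knockdowns at -0.85 and -0.58, and CDK6 right of 0 at 0.67 in both.

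CCND1, on chromosome 11 (69455924 to 69469242, plus strand, GRCh37), encodes the D-type cyclin that links growth signals to CDK4 and CDK6. Its normalised read counts were 9032, 9104 and 8955 in the 3 shControl libraries, 5273, 5149 and 4574 under shARNT, and 6246, 5438 and 6524 under shBMAL1. All 6 knockdown libraries were below all 3 control libraries, and all 3 shBMAL1 libraries were above all 3 shARNT libraries. The mean fell from 9031 ± 74.9 to 4999 ± 373 under shARNT and to 6069 ± 564 under shBMAL1 (SD, n = 3).

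CCND1 fell by 44.5% under shARNT (log2 fold change -0.85, SE 0.06, DESeq2 adjusted p 6.22e-45) and fell by 32.9% under shBMAL1 (-0.58, SE 0.07, DESeq2 adjusted p 1.45e-13). The knockdowns differed from each other, with CCND1 21.3% higher in shBMAL1 than in shARNT (log2 fold change 0.28, SE 0.08, DESeq2 adjusted p 0.00339). Of the genes whose mean reached 100 normalised counts, 186 of 11757 (1.58%) had a lower log2 fold change than CCND1 under shARNT, and 760 of 11843 (6.42%) had a lower one under shBMAL1. Within the HIF2-regulated genes of renal carcinoma described further on, the median log2 fold changes were -1.13 and -0.65.

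Of the other D-type cyclins, CCND3 fell under shBMAL1 and CCND2 was too scarce to test. CCND3 (chromosome 6, 41902672 to 42018095, minus strand), the D-type cyclin best known from lymphoid cells, had 1753, 2090 and 2058 normalised counts in shControl, 1688, 1738 and 1903 under shARNT, and 1269, 1264 and 1177 under shBMAL1. The shARNT libraries overlapped the control libraries, and the shBMAL1 libraries lay below both other groups. CCND3 fell by 37.2% under shBMAL1 (log2 fold change -0.67, SE 0.09, DESeq2 adjusted p 8.80e-13), while under shARNT its log2 fold change of -0.14 did not pass (SE 0.08, DESeq2 adjusted p 0.176). Without the first shControl library, the lowest of that group, the latter became -0.22 and passed (DESeq2 adjusted p 0.0350). The difference between the knockdowns was itself past the threshold, with CCND3 lower in shBMAL1 by a log2 fold change of -0.52 (SE 0.08, DESeq2 adjusted p 3.91e-09).

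CCND2 (chromosome 12, 4378937 to 4414519, plus strand) was hardly detected. It had 2 reads in the first shControl library, 3 in the third shBMAL1 library and 0 in the other 7, so no fold change is given and it was not tested. A count of 0 at this depth allows up to 3 reads in a library, which covers counting error only.

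To compare levels between genes, normalised counts were divided by the length of the canonical transcript in kilobases. CCND1 stood at 2131 ± 17.7 per kilobase in shControl, above CCND3 at 971 ± 91.9. Among the D-type cyclins CCND1 made up 68.7% ± 2.06 of the summed level in shControl, 57.3% ± 3.40 under shARNT and 70.0% ± 2.65 under shBMAL1 (SD, n = 3). The shARNT libraries, at 53.5% to 59.9%, lay below all of the others, which ran from 67.3% to 72.6%. The summed level of the D-type cyclins overlapped between the knockdowns, at 2056 ± 32.7 per kilobase under shARNT and 2043 ± 118 under shBMAL1, against 3102 ± 94.6 in shControl. CCND1 and CCND3 had both fallen under shBMAL1, whereas under shARNT CCND1 alone of the D-type cyclins had passed the test.

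**Figure D2:**
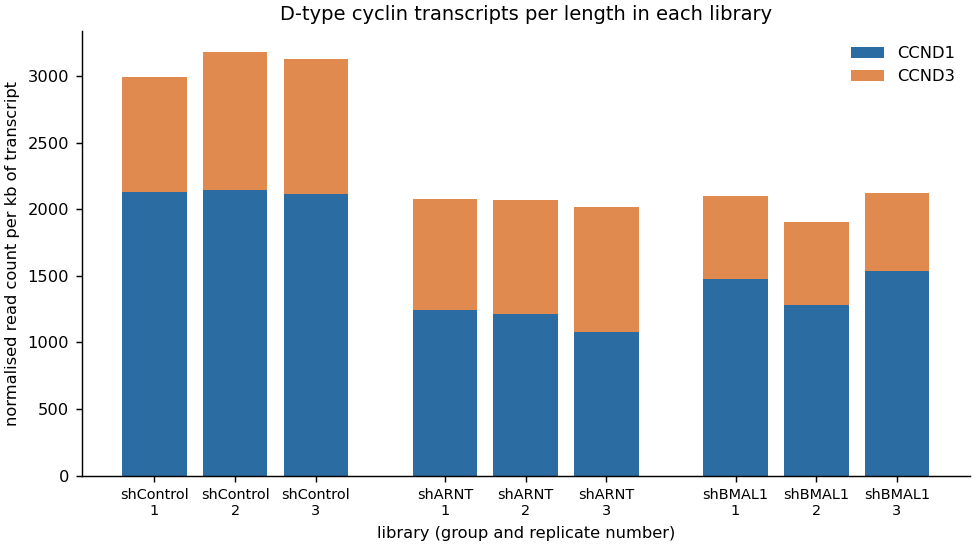
Normalised read counts per kilobase of transcript (y axis, from 0) of CCND1 and CCND3, stacked, in each of the 9 libraries (x axis, by group and replicate number). The stacks average 3102 in shControl, 2056 under shARNT and 2043 under shBMAL1, and CCND1 takes its smallest share in the shARNT libraries.

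CDK6 and CDK4 are the kinases that D-type cyclins activate, and CDK6 rose in both knockdowns while CDK4 passed in neither against shControl. CDK6 (chromosome 7, 92234235 to 92465887, minus strand) had 599, 600 and 548 normalised counts in shControl, 1027, 912 and 840 under shARNT, and 869, 1005 and 900 under shBMAL1. All knockdown libraries were above all control libraries, and those of the knockdowns were intermixed. CDK6 rose by a log2 fold change of 0.67 in both knockdowns (SE 0.10 in each, DESeq2 adjusted p 2.76e-10 under shARNT and 9.80e-10 under shBMAL1). No difference between the knockdowns was detected, and the 95% interval of the log2 difference ran from -0.21 to 0.20 (DESeq2 adjusted p 0.985).

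CDK4 (chromosome 12, 58141510 to 58149796, minus strand) had 6050, 6420 and 5600 normalised counts in shControl, 6505, 6474 and 6466 under shARNT, and 5488, 5449 and 5543 under shBMAL1. The shARNT libraries lay just above and the shBMAL1 libraries just below the control libraries, which spread more widely than either. Its log2 fold changes against shControl were 0.11 under shARNT and -0.14 under shBMAL1 and neither passed (SE 0.06 and 0.07, DESeq2 adjusted p 0.150 and 0.125). Both values moved with single control libraries. Under shARNT it was 0.16 without the second shControl library (DESeq2 adjusted p 0.0416) and 0.058 without the third (DESeq2 adjusted p 0.535). Under shBMAL1 it was -0.19 without the third (DESeq2 adjusted p 0.0418) and -0.088 without the second (DESeq2 adjusted p 0.441), and it passed in 1 fit of all 9 libraries (DESeq2 adjusted p 0.0723). Between the knockdowns CDK4 was lower in shBMAL1 (log2 fold change -0.24, SE 0.06, DESeq2 adjusted p 0.000264).

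The strand setting of the counting is not stated, and CDK4 shares 1078 bases of exon, 57.8% of its total, with TSPAN31 on the opposite strand. TSPAN31 was higher in shBMAL1 than in shARNT (log2 fold change 0.48, DESeq2 adjusted p 8.11e-05), the direction opposite to that of CDK4. Per kilobase CDK4 was the most abundant member in every group, at 3230 ± 220 in shControl, 3475 ± 11.3 under shARNT and 2946 ± 25.4 under shBMAL1. CDK6 was much scarcer, at 49.9 ± 2.54, 79.4 ± 8.09 and 79.3 ± 6.11 per kilobase. Of the summed level of both kinases, CDK6 took 1.52% ± 0.0454 in shControl, 2.23% ± 0.215 under shARNT and 2.62% ± 0.213 under shBMAL1 (SD, n = 3), with the shControl libraries below all knockdown libraries. These shares rest on canonical lengths of 11663 bases for CDK6 and 1865 for CDK4 and are larger without division by length. Undivided mean counts of CDK6 and CDK4 were 582 and 6024 in shControl, 926 and 6482 under shARNT, and 924.5 and 5493 under shBMAL1.

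Both E-type cyclins are S-phase-promoting partners of CDK2. CCNE2 rose under shARNT, and CCNE1 was close to the threshold under shBMAL1. CCNE2 (chromosome 8, 95891998 to 95908906, minus strand) had 862, 841 and 730 normalised counts in shControl, 1108, 1314 and 1209 under shARNT, and 695, 875 and 820 under shBMAL1. The shARNT libraries were above all others, while those of shControl and shBMAL1 overlapped. CCNE2 rose by 49.5% under shARNT (log2 fold change 0.58, SE 0.09, DESeq2 adjusted p 9.40e-09). Under shBMAL1 the log2 fold change was -0.03 (95% interval -0.25 to 0.19, DESeq2 adjusted p 0.893), and the difference between knockdowns was -0.60 (SE 0.11, DESeq2 adjusted p 1.39e-07). CCNE2 shares 1522 bases of exon, 56.9% of its total, with INTS8 on the opposite strand, whose log2 fold changes were -0.03 under shARNT and -0.18 under shBMAL1.

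CCNE1 (chromosome 19, 30302898 to 30315219, plus strand) had 338, 336 and 426 normalised counts in shControl, 505, 418 and 376 under shARNT, and 428, 436 and 465 under shBMAL1. The third shControl library was far above the other two and overlapped the shARNT libraries, whereas the shBMAL1 libraries lay just above it. The log2 fold changes were 0.24 under shARNT (SE 0.14, DESeq2 adjusted p 0.188) and 0.27 under shBMAL1 (SE 0.13, DESeq2 adjusted p 0.101), and neither passed. Without the third shControl library they were 0.36 and 0.39 and both passed (DESeq2 adjusted p 0.0649 and 0.0291), and under shBMAL1 it also passed with edgeR's quasi-likelihood test (adjusted p 0.0538), with the filter on low counts (DESeq2 adjusted p 0.0642) and in 1 fit of all 9 libraries (DESeq2 adjusted p 0.0980). Leaving out other libraries lowered the value under shARNT to 0.12 (without the first shARNT library, DESeq2 adjusted p 0.659) and that under shBMAL1 to 0.21 (without the second shControl library, DESeq2 adjusted p 0.322). The log2 difference between the knockdowns was 0.03, with a 95% interval from -0.22 to 0.29. Of the summed level of E-type cyclins per kilobase CCNE2 held 61.8% ± 5.34 in shControl, 67.1% ± 4.80 under shARNT and 56.7% ± 2.60 under shBMAL1 (SD, n = 3). The shares in shControl (55.6% to 65.1%) overlapped both others, while all shARNT libraries were above all shBMAL1 libraries.

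**Figure D3:**
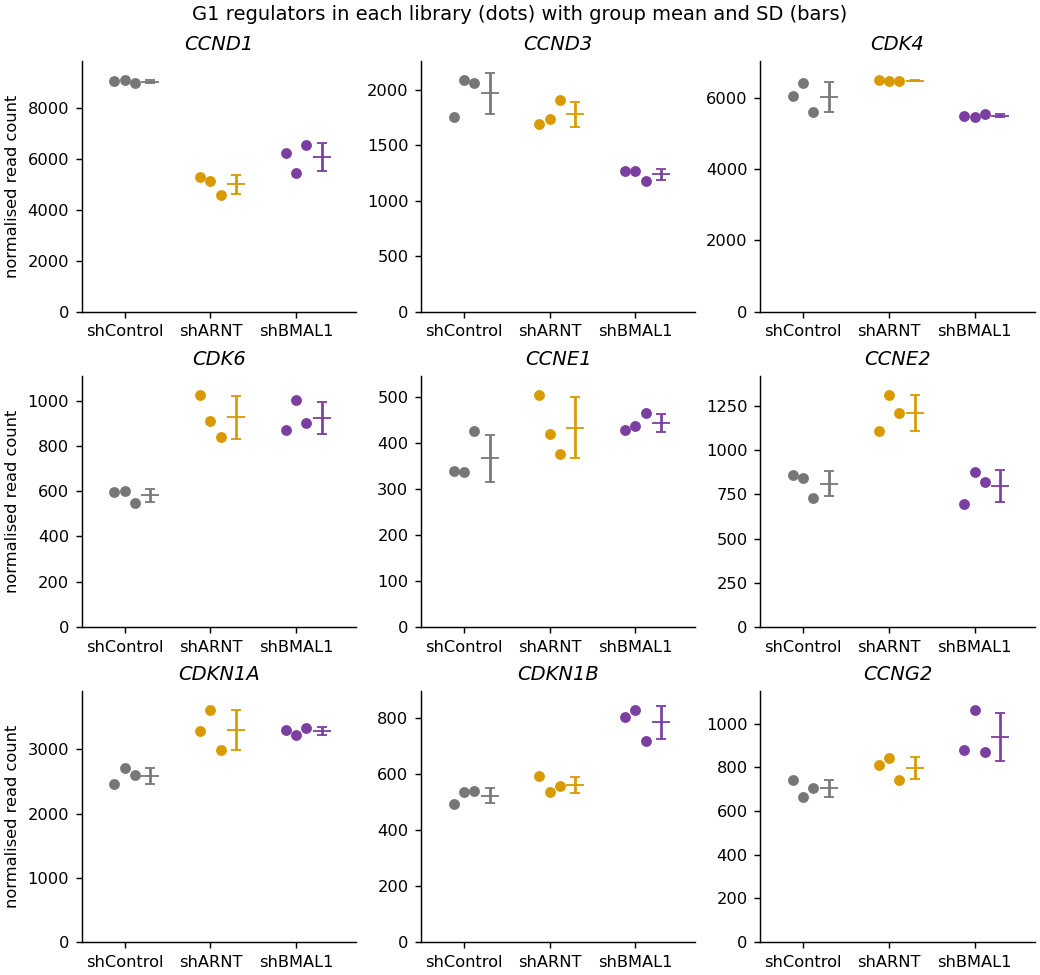
Normalised read counts (y axis, a separate linear scale from 0 in each panel) of the 9 tested members by group (x axis). Points are libraries and the bars beside them are the mean and SD of 3 libraries; CCND1 is highest in shControl, CDK6 and CDKN1A are higher in both knockdowns, CCNE2 stands apart under shARNT, and CCND3 and CDKN1B stand apart under shBMAL1.

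CDKN1A and CDKN1B encode the CIP/KIP inhibitors p21, a classical p53 target, and p27, a target of FOXO factors. CDKN1A (chromosome 6, 36644237 to 36655114, plus strand) had 2454, 2704 and 2609 normalised counts in shControl, 3280, 3618 and 2996 under shARNT, and 3295, 3220 and 3340 under shBMAL1. Every knockdown library was above every control library, and the shARNT libraries spread on both sides of those of shBMAL1. CDKN1A rose by log2 fold changes of 0.35 under shARNT and 0.34 under shBMAL1 (SE 0.07 in both, DESeq2 adjusted p 1.57e-05 and 8.83e-06). The log2 difference between the knockdowns was -0.01, with a 95% interval from -0.16 to 0.15.

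CDKN1B (chromosome 12, 12838432 to 12875303, plus strand) rose under shBMAL1. It had 494, 537 and 540 normalised counts in shControl, 592, 536 and 558 under shARNT, and 805, 830 and 720 under shBMAL1, with the shBMAL1 libraries above all others and the shARNT and control libraries overlapping. The log2 fold change was 0.58 under shBMAL1 (SE 0.11, DESeq2 adjusted p 3.53e-07) and 0.11 under shARNT (SE 0.10, DESeq2 adjusted p 0.492). The difference between the knockdowns was 0.48 (SE 0.10, DESeq2 adjusted p 3.03e-05).

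Per kilobase CDKN1A exceeded CDKN1B by 5.63 ± 0.118 times in shControl, 6.70 ± 0.855 times under shARNT and 4.79 ± 0.448 times under shBMAL1 (SD, n = 3). The groups did not overlap in this ratio. CDKN1A passed CCND1 in the order of levels per kilobase: CCND1 was second after CDK4 in shControl at 2131 against 1223 for CDKN1A, but came after CDKN1A in both knockdowns, at 1180 against 1558 under shARNT and 1432 against 1552 under shBMAL1. In shBMAL1 the highest CCND1 library (1539) exceeded the lowest CDKN1A library (1521), so these neighbours in the order did not separate there. The order and the ratios given here rest on 1 canonical length per gene, 4238 bases for CCND1 and 2117 for CDKN1A. Without division by length CCND1 stayed above CDKN1A, at mean counts of 4999 against 3298 under shARNT and 6069 against 3285 under shBMAL1. The summed D-type cyclins were 2.16 ± 0.0387 times the summed CIP/KIP inhibitors in shControl, 1.15 ± 0.0766 times under shARNT and 1.09 ± 0.0575 times under shBMAL1. The knockdown groups overlapped in this ratio and both lay below shControl.

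CCNG2 (chromosome 4, 78078360 to 78354542, plus strand) encodes an unconventional cyclin associated with cell cycle arrest and known as a FOXO target. It had 742, 666 and 705 normalised counts in shControl, 810, 843 and 743 under shARNT, and 878, 1064 and 872 under shBMAL1. The groups formed 3 steps without overlap, the lowest shARNT library being just above the highest control library. CCNG2 rose under shBMAL1 (log2 fold change 0.41, SE 0.11, DESeq2 adjusted p 0.000632), while the value of 0.19 under shARNT did not pass (SE 0.09, DESeq2 adjusted p 0.124). The difference between the knockdowns, 0.23, was close to the threshold (SE 0.11, DESeq2 adjusted p 0.0824). It did not pass when any shARNT library was left out (DESeq2 adjusted p 0.105 to 0.309), and it was 0.13 without the second shBMAL1 library (DESeq2 adjusted p 0.436).

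Counting only whether groups were separated, 6 of the 9 tested members did not overlap between shARNT and shControl and 8 did not overlap between shBMAL1 and shControl, where 43.9% and 45.1% of all genes tested did not overlap. Between the knockdowns 6 did not overlap, against 44.6% of all genes tested. CDK6 and CDKN1A were the members that rose in both knockdowns, a pattern seen in 7.29% of genes tested in both, and CCND1 the one that fell in both, a pattern seen in 10.7%. No member was called in opposite directions, as 3.57% of those genes were.

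The genes whose levels followed CCND1 most closely over the 9 libraries, by Pearson's r among 11814 genes whose mean reached 100 normalised counts, were RAB42 (r = 0.996), CKAP4 (0.993), ARNT2 (0.991), KIRREL (0.986) and TGM2 (0.985). ARNT2 encodes a paralogue of ARNT. Its mean level was 805 ± 34.2 normalised counts in shControl, 532 ± 34.7 under shARNT and 617 ± 47.8 under shBMAL1 (SD, n = 3). TGM2, a transglutaminase, went from 41649 ± 1025 to 12248 ± 972 and 18790 ± 1242. An r of at least 0.9 was reached by 275 genes, and since the 9 libraries form 3 groups, r mainly reflects the relative spacing of the group means. Of the members, CDK6 (r = -0.88) and CDKN1A (-0.79) ran most strongly against CCND1 and CCND3 followed it only loosely (0.34).

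BMAL1 with CLOCK is known to bind the E-box CACGTG, and HIF factors with ARNT the core ACGTG or GCGTG, so the letters of the members' promoters are given beside their values. RefSeq promoter sequences (GRCh38.p14, 250 bases before to 50 after a start site) matched 7 of the 10 members, with 10 windows in all; CCND1, CCND2 and CCNE2 were not matched. The E-box was present in the windows of CCNG2, CDK4 and CDK6, and 7.26% of 35116 promoters of the same length hold it. They are shown because these members differ in response: CCNG2 rose under shBMAL1, CDK6 rose in both knockdowns, and CDK4 passed only between knockdowns. Each is printed 5′ to 3′ on the strand of the gene with the E-box in capitals.
CCNG2, 30 bases before the start, chr4:77157167-77157192, plus strand: cgcggggagtCACGTGccccgccccc
CDK6, 30 bases after the start, chr7:92836528-92836553, minus strand: aggccgcggaCACGTGcggagagccg
CDK4, 216 bases before the start, chr12:57752511-57752536, minus strand: gtcaagcggtCACGTGtgatagcaac
CDK4, 196 bases before the start, chr12:57752491-57752516, minus strand: agcaacagatCACGTGgctgccatcg
CDK4, 101 bases before the start, chr12:57752396-57752421, minus strand: gggtggcggtCACGTGcccagaacgt

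CACGTG reads the same on both strands and contains ACGTG on each, so every E-box above is also a match to that core. ACGTG was found on either strand in 21.4% of promoters and GCGTG in 36.5%. Of the members that rose under shBMAL1, CDKN1A and CDKN1B held GCGTG, at 195 and 185 bases before the start, and no ACGTG. CDK6, which rose there too, held GCGTG 18 bases before the start in its second window, with ACGTG 72 and 150 bases before. CCND3, which fell there, held 1 GCGTG and the forkhead letters TGTTTAC (3.42% of promoters) in 1 of its 3 windows. The window of CCNE1 held none of these letters. These are matches of letters only, in windows that leave out introns and distant elements.

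Other G1 genes were counted in 10 lists, of 157 genes that are not members in all. The list counts below stand beside the shares of all genes tested that passed. These were 35.4% under shARNT (19% lower, 16.5% higher), 36.8% under shBMAL1 (19.4% lower, 17.4% higher) and 36.3% between the knockdowns. In the list of the RB pathway and other G1 kinases, of 18 tested genes 4 fell and 3 rose under shARNT, and 8 fell and 2 rose under shBMAL1 (medians 0.03 and -0.10, against 0.00 and 0.02 over all genes tested). CDK2, the partner of cyclin E, fell in both (log2 fold changes -0.35 and -0.51). RB1, which encodes RB itself, fell under shBMAL1 (-0.46, SE 0.08, DESeq2 adjusted p 3.56e-08) with a value of 0.04 under shARNT, and the difference between knockdowns passed (-0.49, DESeq2 adjusted p 2.83e-09). RBL2, the RB relative p130, fell in both (-0.39 and -0.19), and CDK8, a Mediator kinase, fell under shBMAL1 (-0.56) with a value of -0.07 under shARNT.

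Of 6 further CDK inhibitors 4 were tested. CDKN2C (p18), an INK4 inhibitor of CDK4 and CDK6, rose in both knockdowns, by 0.48 under shARNT and 0.60 under shBMAL1 (SE 0.07 and 0.08). CDKN2D (p19), of the same family, fell under shBMAL1 (-0.63, SE 0.18, DESeq2 adjusted p 0.00228), with a value of -0.18 under shARNT that did not pass. CDKN2A had 1 read in 1 library and CDKN2B had 0 reads in all 9.

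Among 18 genes that control the turnover of G1 cyclins and p27, 2 fell and 7 rose under shARNT, and 6 fell and 1 rose under shBMAL1 (medians 0.11 and -0.03). SKP2, the ubiquitin ligase subunit that directs p27 to destruction, fell under shARNT (-0.42, SE 0.07, DESeq2 adjusted p 4.40e-09), where CDKN1B RNA did not pass, and was at -0.04 under shBMAL1, where CDKN1B rose. SKP2 was higher in shBMAL1 than in shARNT by 0.38 (SE 0.07, DESeq2 adjusted p 1.19e-06). CKS1B, the cofactor of SKP2 for p27, fell in both (-0.39 and -0.38). FBXW7, which directs cyclin E to destruction, rose under shARNT (0.50), as did CRYAB (1.84), a chaperone described in cyclin D1 turnover; under shBMAL1 their values were 0.10 and 0.59 and did not pass.

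Of 10 tested atypical cyclins, 2 fell and 3 rose under shARNT and 3 fell and 1 rose under shBMAL1 (medians 0.10 and -0.02). CCNJ fell in both (-0.59 and -0.58) and CCNT2, a cyclin of the transcription kinase CDK9, rose in both (0.34 and 0.26). CCNG1, the closest relative of CCNG2 and a p53 target, rose slightly under shARNT (0.14), with a value of 0.08 under shBMAL1.

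Of 26 E2F-driven genes of the G1/S transition, 7 fell and 2 rose under shARNT and 7 fell and 7 rose under shBMAL1, with a median of -0.02 in both. Values below 0 were found for 19 of these genes under shARNT and for 14 under shBMAL1. The largest fall was that of E2F7, an E2F repressor, at -0.63 under shARNT and -1.25 under shBMAL1, and the difference between knockdowns was -0.62 (SE 0.08, DESeq2 adjusted p 3.69e-13). Its relative E2F8 rose in both (0.48 and 0.34). ORC1, of the origin recognition complex, fell under shBMAL1 (-0.36), with a value of -0.06 under shARNT.

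CDKN1A and CDKN1B were set beside the lists of the factors known to drive them. Of 23 p53 target genes other than CDKN1A, 2 fell and 11 rose under shARNT and 7 fell and 10 rose under shBMAL1 (median 0.14 and 0.15, by comparison with 0.35 and 0.34 for CDKN1A). TP53INP1, a stress-induced regulator of p53, rose in both (0.78 and 0.99) and TNFRSF10B, a death receptor, fell in both (-0.55 and -0.58). Of the FOXO factors and their targets, 5 fell and 8 rose among 15 tested under shARNT, and 6 fell and 7 rose among 18 under shBMAL1 (medians 0.45 and 0.28). BCL2L11 (BIM) rose in both (0.79 and 1.19), and so did KLHL24 (0.82 and 0.76). IRS2 (-0.80), TXNIP (-0.60) and GADD45A (-0.57) fell under shARNT, and PINK1 (-0.55) fell under shBMAL1. SOD2 rose under shARNT and fell under shBMAL1 (1.31 and -0.37), and FBXO32 did the same (0.88 and -0.68).

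CCND1 is also known to respond to ERK signalling. Of 16 ERK output genes, 8 fell and 0 rose under shARNT and 10 fell and 1 rose under shBMAL1 (medians -0.23 and -0.45). Under shARNT the count of rises was also 0 with edgeR's quasi-likelihood test and at an unadjusted DESeq2 p under 0.05. FOSL1, of the AP-1 family, fell in both (-0.96 and -1.39), and so did ETV4, an ETS factor (-0.56 and -2.04). The immediate early gene EGR1 rose under shBMAL1 (2.28), with a value of 0.16 under shARNT.

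Of 14 HIF2-regulated genes of renal carcinoma other than CCND1, 12 fell and 1 rose under shARNT and 11 fell and 2 rose under shBMAL1. PDGFB fell in both (-1.95 and -0.65), CXCR4 fell under shBMAL1 (-1.96) with a value of -0.51 under shARNT that passed with edgeR (adjusted p 0.0897) but not with DESeq2 (adjusted p 0.185), and LOX fell in both (-1.58 and -1.11). EGLN3, a HIF prolyl hydroxylase, fell under shARNT and rose under shBMAL1 (-1.08 and 0.58). CITED2 also rose under shBMAL1 (0.72). In the direct comparison 10 of the 14 were higher and 2 lower in shBMAL1, with a median of 0.60, beside 0.28 for CCND1.

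**Figure D4:**
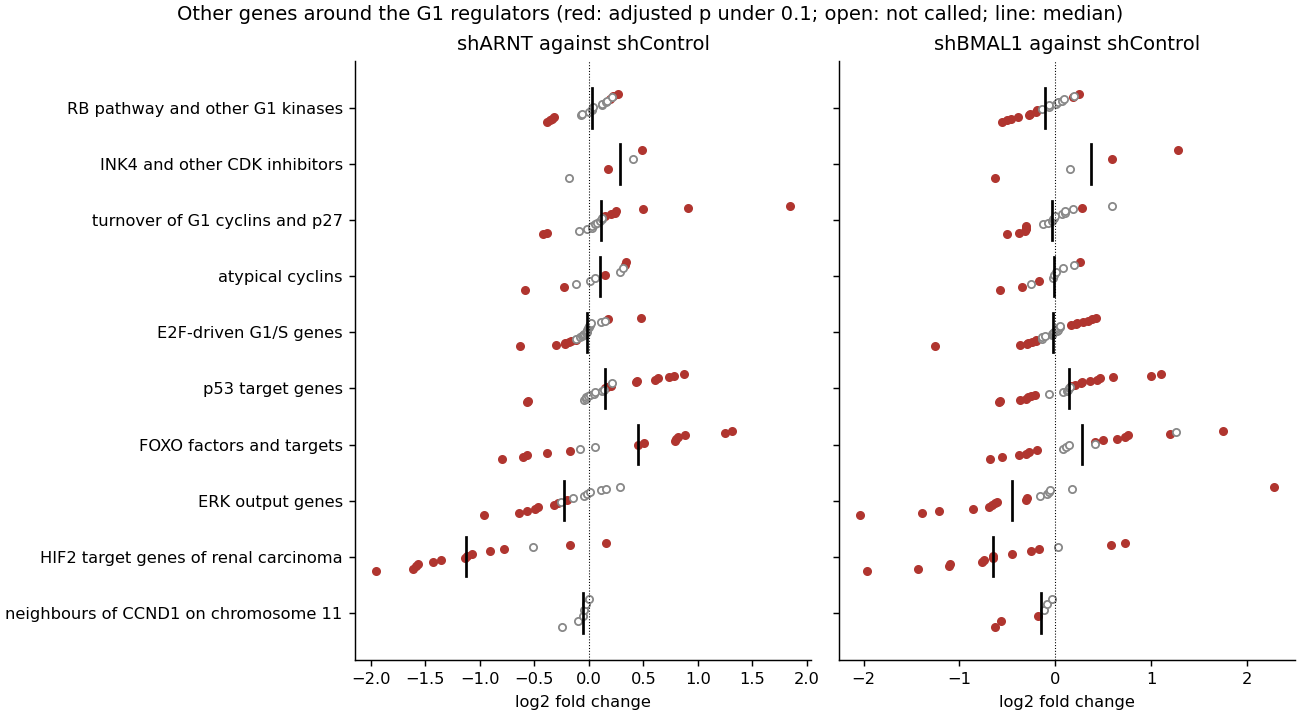
Log2 fold changes (x axis) of the tested genes of each list (rows) under shARNT and under shBMAL1, each against the same shControl libraries. Points are genes, red where the DESeq2 adjusted p was under 0.1 and open otherwise, and vertical lines are list medians; the HIF2-regulated list lies mostly left of 0 (medians -1.13 and -0.65) and the E2F-driven list sits around 0 (median -0.02 in both).

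The genes next to CCND1 on chromosome 11 were counted to see whether its fall was shared along the chromosome. Of 10 neighbours 6 were tested, and FGF19, FGF4, FGF3 and ANO1 had 0 reads in all libraries. Under shARNT 0 of the 6 passed with DESeq2 (median -0.05), as with edgeR's quasi-likelihood test, and 0 had an unadjusted p under 0.05. Under shBMAL1 3 fell: MYEOV (-0.62), ORAOV1 (-0.56) and CTTN (-0.18), beside -0.58 for CCND1 (median -0.15). ORAOV1, named LTO1 in the annotation (69467844 to 69490184, minus strand), overlaps the 3′ end of CCND1 on the opposite strand. Its canonical transcript shares no exon with that of CCND1, but over all annotated transcripts they share 497 bases of exon, and reads there cannot be told apart if counting ignored strand.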

How the data were processed

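RNA of 9 libraries of 786-O cells was analysed, 3 each for shControl, shARNT and shBMAL1, grouped by the sample labels. The authors deposited estimated counts (total reads per gene, linear). The methods name paired-end reads of 100 bases, SeqMan NGen 17 for alignment (GRCh37) and ArrayStar 17 for counting, whereas the submitters' processing notes list STAR, DESeq2 and hg38; annotation and strand setting are not given in the sources used here. The value 0.009, in 46.3% of cells, was set to 0. Fractional values (6.14% of the rest) were rounded, and 53 rows that repeated a name were added to their namesakes. In 28 rows a date replaced the symbol; these were kept apart.

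Each comparison was fitted on its 6 libraries with DESeq2 1.42.0 (R 4.3.3; Wald test, two-sided, Benjamini-Hochberg over all genes tested, threshold 0.1). Normalised counts are counts divided by size factors over all 9 libraries; coordinates are GRCh37. Precision is set by the spread among 3 libraries, which may be technical. The code was tested on simulated data. Alternatives were edgeR 4.0.16, TMM size factors, at least 10 counts in at least 3 libraries, a threshold of 0.05, 1 fit of all libraries, the replicate number as a block, and leaving out each library.

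Members and lists were chosen with earlier results of these data known. By rule all members are named and, per list, at most the 3 called genes with the largest fall and the 3 with the largest rise in each knockdown, and the 5 genes most like CCND1. List genes whose call was lost in any alternative were then left out, and some that kept it are also not named. Direct differences of RB1, SKP2 and E2F7 were added after their values were seen.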

Additional observations from a re-analysis of the deposited data

How the results depend on the processing

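Over 12 alternatives per fold change, the members' values kept their direction and side of the threshold in 300 cases; 9 cases came to pass it, 6 no longer passed it and 9 changed sign, all of them values that had not passed. List genes that the naming rule selected but that lost their call in any alternative were left unprinted. Some selected genes that kept their call were also not printed. Those printed as risen or fallen therefore passed throughout by choice. Over the list genes followed, 1197 cases kept direction and call, 49 lost the call, 1 gained it and 1 changed sign, and the list counts include those calls. Leaving out 1 library in turn gave 1 to 2 members lower under shARNT, the second being CCND3 without the first shControl library (log2 fold change -0.22, DESeq2 adjusted p 0.0350). It moved CCNE2 under shBMAL1 from -0.10 to 0.061, SKP2 under shBMAL1 from -0.062 to 0.0022, and, between the knockdowns, CDK6 from -0.073 to 0.074, CCNE1 from -0.063 to 0.15 and CDKN1A from -0.075 to 0.062. Other values that had not passed also moved by over 1.5 times without passing: under shARNT CDKN1B ranged from 0.064 to 0.14, CDKN2D from -0.29 to -0.070 and EGR1 from 0.059 to 0.26, and under shBMAL1 CCNG1 ranged from 0.030 to 0.13, FBXW7 from 0.048 to 0.17 and CRYAB from 0.25 to 0.85.

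In CPM the mean over that of shControl was 1.09 for CDK4 under shARNT and 0.934 under shBMAL1, 1.01 for CCNE2 under shBMAL1, on the other side of 1, and 1.30 for CDKN1A under shBMAL1. Without division by length CCND1 made up 82.1%, 73.7% and 83.0% of D-type cyclin reads in shControl, shARNT and shBMAL1. Ranking by Spearman's rho shared 2 of the 5 genes most like CCND1. A fit that blocked on replicate number gave 4, 6 and 5 members past the threshold under shARNT, under shBMAL1 and between the knockdowns, CCNG2 being the one lost in the last (DESeq2 adjusted p 0.121). Deviations of same-numbered libraries had correlations from -0.21 to 0.13, within the -0.30 to 0.30 of differently numbered ones. With 3 libraries per group this cannot decide whether the numbers pair them. The design holds 3 libraries per group and 1 hairpin label per target. Reads of CDK4 and CCNE2 cannot be told apart from those of their antisense neighbours if counting ignored strand.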
